A study of Mus musculus with 6 samples.

Results

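The 10 genes described here are classical immediate early genes of the mouse brain: Fos, Fosb, Junb, Jun, Egr1, Arc, Npas4, Nr4a1, Ier2 and Btg2. They were chosen by name, with earlier results of these data known. All 10 were found among the 19006 mouse genes of the SCRB-seq wells, the 21987 mouse genes of the SMART-Seq2 wells and the 23295 genes of the table that holds the plate nuclei, and all 10 had UMIs in the droplet nuclei.

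The study tested RNA sequencing of nuclei from formalin-fixed, paraffin-embedded (FFPE) tissue. Every sample was labelled cortex of C57BL/6J mice aged 8 to 12 weeks, cut as 50 µm scrolls. Wax was taken out by 1 of 3 routes, mineral oil or xylene under heat, or xylene at room temperature. The tissue was then rehydrated through ethanol and lysed, and nuclei were sorted into plates or run in droplets. Frozen wells and frozen nuclei stand beside the FFPE ones in the authors' annotation, which names the left brain for the FFPE plate nuclei and the right brain for the frozen ones. Neither the sex nor the animal behind a well or nucleus is given, so p-values between wells measure only the spread between wells, which may be technical.

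Immediate early genes are transcribed within minutes of a stimulus without new protein synthesis, and in neurons they are widely read as a sign of recent activity. Calcium and kinase signals reach the transcription factors CREB, SRF and MEF2 at their promoters. Most members encode transcription factors themselves: Fos, Fosb, Jun and Junb form the AP-1 dimers, Egr1 is a zinc finger factor, Nr4a1 an orphan nuclear receptor and Npas4 a neuronal factor that answers to calcium entry. Arc encodes a synaptic protein that helps to take up AMPA receptors, Btg2 an antiproliferative cofactor, and Ier2 a small nuclear protein.

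Promoter sequences are shown because several members were detected in the same nuclei. RefSeq's table on GRCm38.p6 held 7 of the 10, and Egr1, Arc and Ier2 are named only. The core of the cAMP response element, to which CREB binds, reads TGACG, or CGTCA on the other strand. The capitals below mark it in the 250 bases before the start of Fos (chr12:85473640-85473889, plus strand), Junb (chr8:84978749-84978998, minus) and Btg2 (chr1:134079156-134079405, minus), and in a stretch of 30 bases upstream of RefSeq's start of Npas4 (chr19:4990128-4990157, minus). GENCODE places the start of Npas4 further upstream, so that this stretch lies inside its gene span.
Fos: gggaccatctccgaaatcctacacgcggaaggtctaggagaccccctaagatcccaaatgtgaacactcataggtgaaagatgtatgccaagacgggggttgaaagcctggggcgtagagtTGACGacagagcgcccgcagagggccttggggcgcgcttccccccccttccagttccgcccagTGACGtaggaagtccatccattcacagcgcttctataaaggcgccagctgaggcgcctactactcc
Junb: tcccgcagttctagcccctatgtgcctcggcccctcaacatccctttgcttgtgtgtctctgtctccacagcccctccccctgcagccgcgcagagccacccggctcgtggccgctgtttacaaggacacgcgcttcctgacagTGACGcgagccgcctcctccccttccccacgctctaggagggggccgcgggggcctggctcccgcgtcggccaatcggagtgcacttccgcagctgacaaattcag
Btg2: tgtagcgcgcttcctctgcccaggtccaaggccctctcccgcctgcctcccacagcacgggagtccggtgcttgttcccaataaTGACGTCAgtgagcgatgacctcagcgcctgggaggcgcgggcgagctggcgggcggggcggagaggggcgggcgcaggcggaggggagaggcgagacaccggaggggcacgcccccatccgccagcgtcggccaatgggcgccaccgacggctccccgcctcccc
Npas4: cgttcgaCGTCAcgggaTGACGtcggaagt

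This core was found on either strand in 6 of the 7 promoters, Jun being the exception, with 12 matches in all. It was found in 17.8% of 32851 promoters of the same length. The full element TGACGTCA, whose 2 overlapping cores are counted above, was found in Btg2 only and in 1.55% of all promoters. The TATAAA box stood in Fos, 33 to 28 bases before the start, and in 12.4% of all promoters. The CArG box, which SRF binds, was found within these 250 bases in 0 of the 7 and in 1.47% of all. Bases further upstream were not searched, nor were the promoters of Egr1, Arc and Ier2. A match describes the letters and not a site in use.

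All members are short genes in the GENCODE M21 annotation of GRCm38. Fos lies at chr12:85473890-85477273 on the plus strand, Fosb at chr7:19302696-19310051 (minus), Junb at chr8:84974484-84978718 (minus) and Jun, a gene of 1 exon, at chr4:95049034-95052222 (minus). Arc lies at chr15:74669083-74672570 (minus), Npas4 at chr19:4984355-4990316 (minus), Nr4a1 at chr15:101254269-101274795 (plus) and Egr1 at chr18:34859823-34864984 (plus). Ier2, also of 1 exon, lies at chr8:84661331-84662852 (minus) and Btg2 at chr1:134075170-134079120 (minus). Jun overlaps the antisense gene Junos by 689 bases, and Junb overlaps Prdx2 on the opposite strand by 351 bases. No source used here says whether counting used the strand, so reads from those stretches cannot be told apart.

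The SCRB-seq table held 64 wells of 10 or 100 nuclei in 8 library pools of 8 wells, 1 pool for each preparation and nuclei number. Pool and group therefore cannot be told apart. Mouse counts ran from 7512 to 167144 per SCRB-seq well and from 270363 to 942966 per SMART-Seq2 well, of which there was 1 of 10, 50 and 100 nuclei for each preparation. The medians were 47887 counts for 143 FFPE plate nuclei, 255329 for 137 frozen plate nuclei and 325 UMIs for 7031 droplet nuclei. The summed level of 9 markers of cerebellar granule neurons was 295 to 6115 CPM (mouse counts scaled to a common total) in FFPE wells of SCRB-seq and 0 to 101 in frozen wells, where Gabra6, Cbln3, Zic4 and Barhl2 were at 0. The 10 excitatory markers summed to 595 CPM over FFPE wells and 1196 over frozen wells. The label of these wells, cortex, does not name the cerebellum.

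In the SCRB-seq wells the immediate early genes were absent from some pools, in part of the wells of others and in every well of a few. Of the 60 combinations of member and FFPE pool, 27 had no count in any of the 8 wells, 26 had counts in 1 to 7 wells and 7 had counts in all 8. Of the 20 frozen combinations, 2 had none, 14 were partial and 4 were complete. Among FFPE pools of 10 nuclei 21 of 30 were empty, against 6 of 30 among those of 100. The median well of 10 FFPE nuclei held 2 members and that of 10 frozen nuclei 4. With 100 nuclei the medians were 6 and 7.5. Arc, Npas4, Junb and Fosb were at 0 in all 24 FFPE wells of 10 nuclei, while Arc, Npas4 and Junb were each found in 3 to 5 of the 8 frozen wells of 10 nuclei. Median depth was 37537 counts in the former and 37612 in the latter, but 14558 in the mineral oil wells of 10 nuclei (7512 to 20593). In bulk wells, fewer cells of a type and less RNA per cell cannot be told apart.

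**Figure D1:**
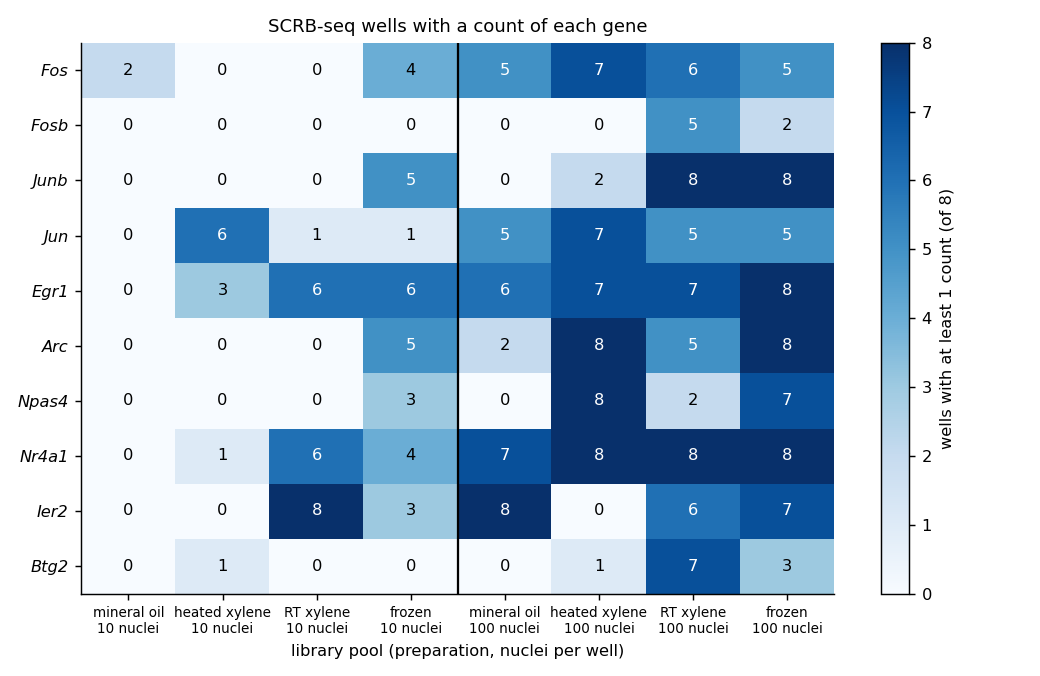
Number of wells, of 8, with at least 1 count of each gene (rows) in each SCRB-seq pool (columns, by preparation and nuclei per well; RT, room temperature). Junb, Npas4, Ier2 and Btg2 are in nearly all wells of some FFPE pools and in 0 of 8 in others, and mineral oil with 10 nuclei holds Fos alone.

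Arc and Npas4, the most neuron-specific members, were high in frozen wells and in wells of 100 nuclei from heated xylene. Arc ran from 45.8 through a median of 92.6 to 184 CPM in the frozen wells of 100 nuclei and from 21.6 through 82.2 to 230 CPM after heated xylene, each in 8 of 8 wells. These ranges overlapped. It was found in 5 of 8 wells after xylene at room temperature (median 17.1, highest 109 CPM) and in 2 of 8 after mineral oil (highest 120 CPM). Npas4 ran from 25.0 through 43.4 to 114 CPM in the 8 heated xylene wells of 100 nuclei and from 0 through 37.7 to 103 CPM in the frozen ones. It had 0 counts in all 16 mineral oil wells. Heated xylene wells held at least 7.28 times the Npas4 of mineral oil wells, taking 3 counts over the group as the limit that a count of 0 allows.

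The AP-1 genes differed among themselves. Junb was in 8 of 8 frozen wells of 100 nuclei (8.2 to 76.4 CPM, median 33.1) and in 8 of 8 wells of 100 nuclei after xylene at room temperature (18.2 to 145 CPM, median 28.5), but in 2 of 16 heated xylene wells and 0 of 16 mineral oil wells. Jun went the other way. It had 127 counts over 48 FFPE wells and 8 over 16 frozen wells, or 42.7 CPM (95% interval 35.6 to 50.8) against 7.51 CPM (3.24 to 14.8), and heated xylene held it in 6 of 8 wells of 10 nuclei and 7 of 8 of 100. Fos summed to 18.5 CPM (13.9 to 24.1) over FFPE and 30.0 CPM (20.5 to 42.4) over frozen wells. A single mineral oil well of 10 nuclei carried 764 CPM of Fos, the highest value of any member in any SCRB-seq well. Fosb was the scarcest member, with 9 counts in FFPE and 4 in frozen wells. The intervals are exact Poisson intervals and cover counting error only.

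Egr1 and Nr4a1 were the members found most often. Egr1 was in 29 of 48 FFPE wells and 14 of 16 frozen wells, at 54.8 CPM (46.7 to 63.8) and 91.0 CPM (73.8 to 111). Its medians in wells of 100 nuclei were 26.3 CPM after mineral oil, 50.3 after heated xylene, 88.9 after xylene at room temperature and 95.2 in frozen wells, and all 4 ranges overlapped. Nr4a1 was in 30 of 48 FFPE and 12 of 16 frozen wells, and its medians at 100 nuclei, in the same order, were 39.4, 48.5, 37.0 and 47.2 CPM. Neither gene had a count in the 8 mineral oil wells of 10 nuclei, the shallowest pool.

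Ier2 and Btg2 were split between preparations. Ier2 had 0 counts in all 16 heated xylene wells, but it was in all 8 mineral oil wells of 100 nuclei (30.1 to 73.1 CPM, median 59.4) and in all 8 wells of 10 nuclei after xylene at room temperature (31.2 to 317 CPM, median 89.7). Wells from xylene at room temperature held at least 25.5 times, and mineral oil wells at least 17.0 times, the Ier2 of heated xylene wells. In wells of 100 nuclei alone these limits were 7.77 and 12.5 times, and mineral oil wells of 10 nuclei held none. In frozen wells it was found in 10 of 16. Btg2 was in 7 of 8 wells of 100 nuclei after xylene at room temperature (median 22.0 CPM) and in 2 of the other 40 FFPE wells.

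**Figure D2:**
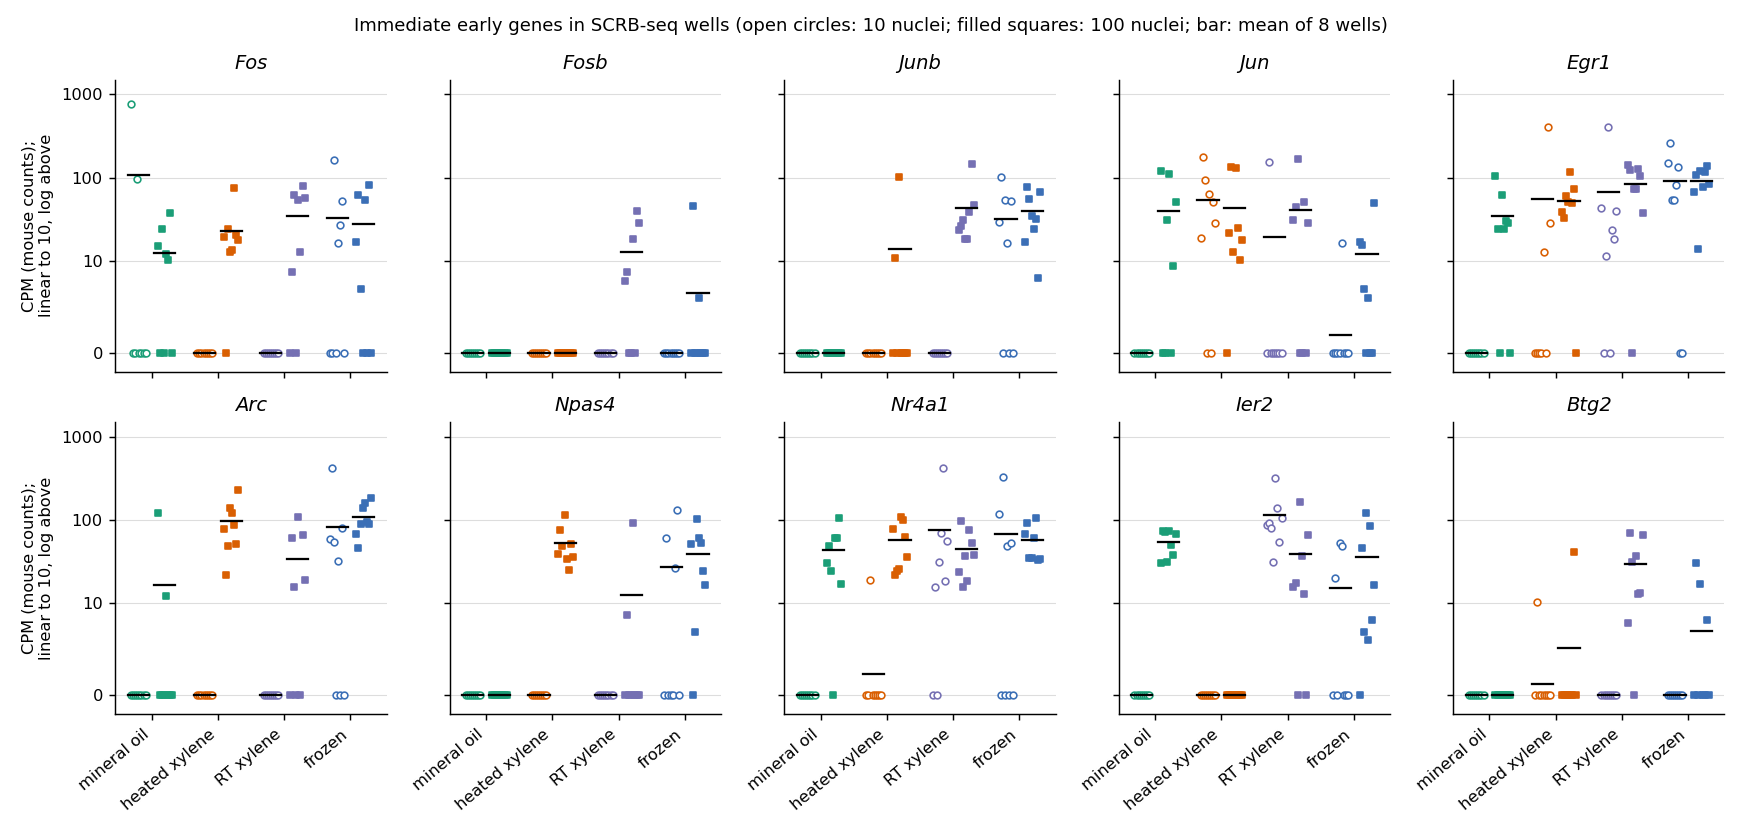
CPM of each gene in every SCRB-seq well (y axis linear to 10 and logarithmic above), by preparation; open circles are wells of 10 nuclei, filled squares wells of 100, and each bar is the mean of 8 wells. Arc, Npas4 and Junb lie at 0 in all FFPE wells of 10 nuclei, and Jun lies higher in heated xylene wells than in most frozen wells.

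Whether FFPE and frozen wells differed was tested with edgeR's quasi-likelihood test and Benjamini-Hochberg adjustment over all mouse genes. None of the 10 members passed edgeR's filter on low counts, so 0 were tested in a fit that called 58.0% of its 1478 genes. With at least 10 counts summed over the wells as the filter, all 10 were tested and 4 were called, beside 31.9% of all 14524 genes, 10.7% higher and 21.2% lower in FFPE wells. The members' share is near that background. Arc fell by 1.99 on the log2 scale (SE 0.49, adjusted p = 0.000796), and Jun rose by 1.98 (SE 0.64, adjusted p = 0.0120). Npas4 (adjusted p = 0.000487) and Junb (adjusted p = 0.000235) fell too; since mineral oil wells held none of either, their size is given as the ratio of summed levels, 2.53 and 2.87 times higher in frozen wells. In wells of 10 nuclei alone, 4 of 7 members tested were called beside 35.1% of all genes, in wells of 100 alone 3 of 10 beside 24.9%, and with the FFPE wells as 1 group 3 of 10 beside 27.9%. Jun was not called without the frozen pool of 10 nuclei or without the mineral oil pool of 100, and Arc was not called without the frozen pool of 100.

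With each pool as 1 sample, 6 FFPE against 2 frozen, the same edgeR test called 0 of the 10 members and 0.737% of all genes. Arc (adjusted p = 0.218 by edgeR), with pool means of 23.3 CPM in FFPE and 105 CPM in frozen, was the 1 member with an unadjusted p under 0.05, as were 1698 of 14524 genes. Pool by pool, Arc was also the 1 member whose groups did not overlap, at 0 to 93.1 CPM in FFPE pools and 98.5 to 112 CPM in frozen pools. An exact two-sided permutation test gave p = 0.0357, the smallest that 28 splits allow. Both frozen pools lay above all FFPE pools in 11.6% of genes. Junb, Egr1 and Npas4 gave an exact permutation p of 0.107 each and Jun 0.214, with pool means of 37.2 CPM in FFPE and 6.24 CPM in frozen. Fos, Fosb, Nr4a1, Ier2 and Btg2 gave 0.750 to 1. Granule markers were higher and excitatory markers lower in the FFPE wells, and their part in these differences was not tested.

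A term for the difference of FFPE minus frozen between wells of 10 and of 100 nuclei was called by edgeR in 6.97% of genes and, among the members, in Arc (adjusted p = 0.0141 over wells). All 24 FFPE wells of 10 nuclei were at 0 Arc and each frozen arm was 1 pool, so this call supports no difference between the nuclei numbers.

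Among the 3 ways of removing wax, 0 members passed edgeR's filter, in fits that called 8.52% of genes between mineral oil and heated xylene, 1.94% between heated xylene and xylene at room temperature, and 10.3% between mineral oil and xylene at room temperature. With at least 10 counts summed, 9 members were tested (Fosb was not), and 3, 2 and 2 were called, beside 26.6%, 21.1% and 22.0% of all genes. Npas4 and Junb were lower and Ier2 higher after mineral oil than after heated xylene. Npas4 was higher (36 against 6 counts, 6.21 times by level) and Ier2 lower after heated xylene than after xylene at room temperature. Btg2 and Junb were lower after mineral oil than after xylene at room temperature, at least 4.30 and 5.67 times. With pools as samples edgeR called 0 members in each of the 3 comparisons, and 0%, 0% and 0.0223% of genes. At an unadjusted p under 0.05 there were 2, 1 and 2 of the 9 members, beside 989, 821 and 790 of 13483 genes. The calls over wells also rested on single pools. Of those between mineral oil and heated xylene, that of Ier2 ended without the mineral oil pool of 100 nuclei, that of Npas4 without the heated xylene pool of 100 and that of Junb without any of 4 pools, namely both of mineral oil, heated xylene of 100 and xylene at room temperature of 100. Between heated xylene and xylene at room temperature, Npas4 was not called without the heated xylene pool of 100 or the room temperature pool of 10, while Ier2 was called without any 1 pool. Btg2 and Junb were not called between mineral oil and xylene at room temperature without the mineral oil pool of 100 or the room temperature pool of 100.

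The SMART-Seq2 wells gave the same 10 genes at greater depth. All 3 frozen wells held 9 or 10 members, and the 9 FFPE wells held 3 to 10. Arc was at 116, 170 and 111 CPM in the frozen wells of 10, 50 and 100 nuclei. In FFPE wells of 10, 50 and 100 nuclei it was at 320, 0 and 5.38 CPM after mineral oil, at 74.2, 19.1 and 31.7 CPM after heated xylene, and at 0, 47.6 and 34.7 CPM after xylene at room temperature. The single mineral oil well of 10 nuclei lay above every frozen well and the other 8 FFPE wells lay below them. Npas4 was at 3.37, 29.6 and 32.1 CPM in frozen wells and at 0 in 6 of 9 FFPE wells, the others holding 1.44, 1.76 and 12.2 CPM. Junb was at 5.61, 29.6 and 19.3 CPM in frozen wells and reached 14.3 CPM in FFPE wells, with 5 of 9 at 0. Egr1 ran from 29.6 to 71.8 CPM in frozen and from 0 to 187 CPM in FFPE wells, and Nr4a1 from 20.2 to 37.0 and from 1.35 to 93.3 CPM, so both overlapped. Ier2, Btg2 and Jun repeated the SCRB-seq differences in part. For 10, 50 and 100 nuclei Ier2 was at 0, 5.10 and 2.88 CPM after heated xylene, at 0, 2.37 and 4.04 CPM after mineral oil and at 0, 24.7 and 30.6 CPM after xylene at room temperature, beside 11.2, 3.70 and 4.29 CPM in frozen wells. Btg2 was at 39.0, 0 and 70.0 CPM after mineral oil and at 0, 38.8 and 6.11 CPM after xylene at room temperature. By summed levels it was 2.66 times higher after mineral oil, the opposite of its order in SCRB-seq. Jun summed to 1.40 times as much in FFPE as in frozen wells, against 5.68 times in SCRB-seq, and 31 and 22 of its 73 FFPE counts lay in the wells of 10 and of 50 nuclei from xylene at room temperature.

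Of the 5 members that passed edgeR's filter there (Btg2, Fos, Arc, Nr4a1 and Egr1), 0 were called in FFPE minus frozen, where 4.09% of 9092 genes were. Arc differed by −1.58 (SE 1.07, adjusted p = 0.559). Between the methods edgeR called 0 members and 0% of 8372 genes, with 314, 199 and 379 genes at an unadjusted p under 0.05. DESeq2 called 15, 1 and 18 genes there and 640 of 9092 genes in FFPE minus frozen. It called 0 members in all 4 comparisons. None of the 5 members had an unadjusted p under 0.05 in edgeR. The granule markers summed to 55.5 to 144 CPM in the frozen wells and 1318 to 3898 CPM in the FFPE wells, and the excitatory markers to 2002 and 496 CPM over the wells of each kind.

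Other genes of the pathway were read from 3 lists: 33 further immediate early genes, 15 slower genes induced by activity, and 30 upstream kinases and transcription factors. In SCRB-seq, FFPE minus frozen, edgeR's filter passed 2, 1 and 9 of them, in the fit that called 58.0% of all genes. Homer1, which encodes a synaptic scaffold, fell by 1.63 (SE 0.38, adjusted p = 0.000143), with 313 CPM over frozen wells and 74.6 to 118 CPM after the 3 methods. Of the 9 kinases and factors 3 fell and 3 rose. Camk2a, the main calcium-dependent kinase of excitatory synapses, fell by 3.30 (SE 0.29, adjusted p = 1.83e-16), from 827 CPM to 20.5 to 199 CPM. Mef2c, an activity-regulated factor, fell by 2.81 (SE 0.30, adjusted p = 2.95e-13) and Mkl2, a cofactor of SRF, by 1.17 (SE 0.35, adjusted p = 0.00313). Camk4, which phosphorylates CREB, rose by 1.20 (SE 0.32, adjusted p = 0.00105) and Mkl1 by 0.84 (SE 0.37, adjusted p = 0.0488).

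With at least 10 counts summed, 23 of the further immediate early genes were tested. Dusp5, Klf10 and Jund rose and Homer1 and Egr4 fell, beside 10.7% of all genes that were higher and 21.2% that were lower. Of the 13 slower genes tested 1 rose and 8 fell. Among these 8, the secreted neuropeptide Vgf summed to 41.3 CPM over frozen wells and was at 24.8 CPM after heated xylene and at 0 after the other methods. The prohormone convertase Pcsk1 summed to 36.6 CPM over frozen wells and was at 6.00 CPM after xylene at room temperature and at 0 after the others. The kinase Plk2 summed to 131 CPM over frozen wells, to 24.9 CPM after mineral oil and to 29.2 CPM after xylene at room temperature, and was at 0 after heated xylene. The 27 kinases and factors tested split into 4 that rose and 4 that fell. The medians of the fitted log2 differences were −0.43, −2.07 and 0.22 for the 3 lists and −0.11 for all genes; where a method is at 0 the fitted value is no size. With pools as samples edgeR called 0 of 63 list genes, beside 0.737% of all genes, with 9 at an unadjusted p under 0.05, beside 1698 of 14524 genes, and the smallest adjusted p at 0.150 for Camk2a (−2.81, SE 0.77). The excitatory markers were lower in the same FFPE wells, and their part in these falls was not tested.

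In the SMART-Seq2 wells edgeR's filter passed 11 further immediate early genes, 11 slower genes and 27 kinases and factors, and 4 of them were called, beside 4.09% of all genes. Camk2a (−3.08, SE 0.41, adjusted p = 3.85e-05), Mef2c (−1.88, SE 0.43, adjusted p = 0.0114) and Plk2 (390 counts in 3 frozen wells, 15 in 9 FFPE wells, adjusted p = 0.000177) were lower in FFPE wells, and Camk4 (1.84, SE 0.34, adjusted p = 0.00171) was higher. Between methods, Mef2c was lower after mineral oil than after heated xylene (−2.24, SE 0.53, adjusted p = 0.00302) and than after xylene at room temperature (−1.80, SE 0.53, adjusted p = 0.0182) in SCRB-seq, as was Sgk1, a kinase and early response gene, in the latter comparison (−2.04, SE 0.63, adjusted p = 0.0291). With at least 10 counts summed, 22 further immediate early genes, 12 slower genes and 27 kinases and factors were tested between methods, beside the shares of all genes given above (26.6%, 21.1% and 22.0%). Of the further immediate early genes 1 was higher and 7 lower after mineral oil than after heated xylene, 6 were higher and 4 lower after heated xylene than after xylene at room temperature, and 1 was higher and 5 lower after mineral oil than after xylene at room temperature. In the same order, 1 higher and 5 lower, 2 higher and 2 lower, and 0 higher and 5 lower of the slower genes were called, and of the kinases and factors 1 and 5, 0 and 1, and 0 and 5. With pools as samples none of these differences between methods was called. The most counted list genes were Homer1, Sgk1, Rasgrf1, Scg2, Kcna1, Ppp3ca and Camk4.

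Across the 64 SCRB-seq wells, the genes whose CPM followed the members' summed CPM most closely were Cspp1 (Spearman's rho 0.62), Lncpint (0.59), Otud7a (0.58), Scaper (0.57) and Oxr1 (0.57), out of the 1478 genes that passed the filter. The points share pools, preparations and depth.

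Single nuclei sorted into plates and sequenced by SMART-Seq2 showed the members more often in frozen than in FFPE tissue. At least 1 member was found in 71 of 143 FFPE nuclei (49.7%, exact binomial 95% interval 41.2 to 58.1%) and 96 of 137 frozen nuclei (70.1%, 61.7 to 77.6%). Egr1 was found in 23.8% of FFPE nuclei (17.1 to 31.6%) and 50.4% of frozen nuclei (41.7 to 59.0%). Arc was in 9.79% (5.46 to 15.9%) and 40.1% (31.9 to 48.9%), and Nr4a1 in 14.7% (9.33 to 21.6%) and 39.4% (31.2 to 48.1%). Junb was in 4.90% and 21.9%, Npas4 in 4.20% and 15.3%, and Ier2 in 0 of 143 FFPE nuclei (up to 2.55% at the upper end of its interval) and 5.11% of frozen ones. Jun (9.79% and 13.1%) and Fosb (3.50% and 3.65%) were nearly alike. The cell type markers differed as well: granule markers summed to 1132 CPM in FFPE and 82.5 CPM in frozen nuclei and were found in 90.9% and 49.6% of them, and inhibitory markers summed to 1588 and 3117 CPM. Their part in the members' shares was not tested. With 1 sample of each kind there is no test, and 91.2% of 18212 genes were likewise found in a smaller share of FFPE nuclei.

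The gap was narrower at equal depth. After each nucleus was thinned to 10000 counts, which left 135 FFPE and 127 frozen nuclei, 34.1% (26.1 to 42.7%) and 44.1% (35.3 to 53.2%) held a member. Nr4a1 was then in 5.19% (2.11 to 10.4%) and 15.7% (9.89 to 23.3%), Egr1 in 14.1% and 25.2%, Arc in 6.67% and 11.8%, and Jun in 7.41% of FFPE and 3.15% of frozen nuclei, an order opposite to that of all counts. Npas4 was in 0% (up to 2.70%) and 4.72% (1.75 to 10.0%). All of these pairs of intervals overlapped. These shares are 1 random draw. Over 20 further draws the share with a member ran from 28.9 to 37.0% in FFPE and from 35.4 to 48.0% in frozen nuclei, and the frozen share was higher in all 20. The intervals stood apart in 2 of 20 draws for Egr1, in 2 for Arc and in 1 for Junb, and in 0 for each of the other 7 members.

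**Figure D3:**
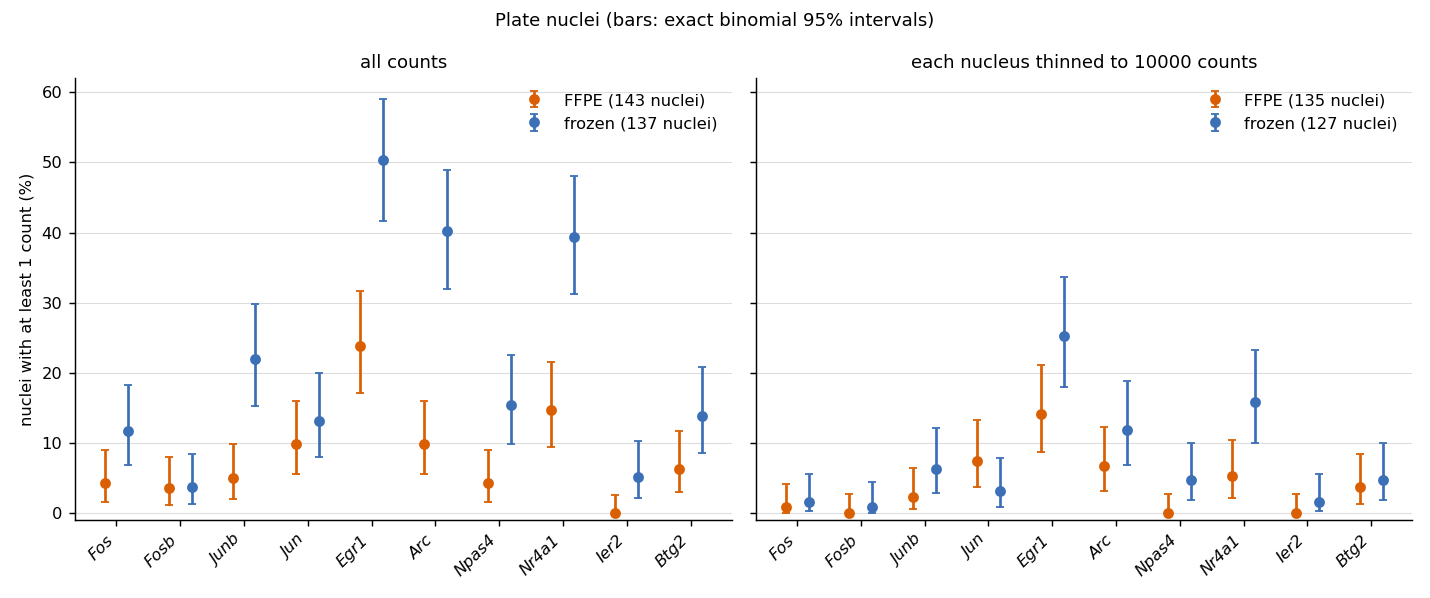
Percent of plate nuclei with at least 1 count of each gene, for all counts (left) and after thinning to 10000 counts per nucleus (right), with exact binomial 95% intervals. Frozen nuclei stand clearly above FFPE nuclei for Egr1, Arc, Nr4a1, Junb and Npas4 at full depth, while in the thinned draw plotted the intervals overlap for every gene.

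Pooled over nuclei, levels did not all follow detection. Nr4a1 summed to 13.0 CPM in FFPE and 101 CPM in frozen nuclei, Junb to 0.932 and 12.3 CPM and Arc to 11.4 and 59.0 CPM, or 7.78, 13.2 and 5.18 times more in frozen nuclei. Without the 9 FFPE nuclei described below with the plates, their FFPE levels were 25.4, 1.78 and 19.8 CPM. At equal depth the levels were closer, at 21.5 and 64.6 CPM for Nr4a1, 2.22 and 10.2 for Junb and 25.2 and 48.8 for Arc. Ier2 was at 1.35 CPM in frozen nuclei, from 7 nuclei of which 1 gave 48.8% of the counts, and at 0 in FFPE nuclei, where 3 counts would be 0.127 CPM, or 0.297 CPM without the 9 nuclei. Egr1 (70.4 and 72.3 CPM) and Fos (3.56 and 3.57 CPM) were equal within 1.03 times, and Btg2 was higher in FFPE nuclei, at 27.0 against 3.70 CPM. Without those 9 nuclei Egr1 was at 156 CPM and Btg2 at 6.74 CPM in FFPE tissue. As a mean over nuclei Fos was at 2.67 CPM in FFPE and 11.3 CPM in frozen tissue. Jun and Npas4 were 2.14 and 1.95 times higher in frozen nuclei by summed counts. Npas4 was at 4.57 CPM in FFPE and 8.94 CPM in frozen nuclei, and at 0.792 CPM in FFPE without the 9 nuclei. For Jun the order turned as a mean over nuclei (21.5 CPM in FFPE, 16.3 in frozen), at equal depth (22.2 and 13.4 CPM) and without the 9 nuclei (33.7 and 32.4 CPM). By summed counts 5 of the 10 members were at 1/2 or less in FFPE nuclei and 1 was at 2 times or more, as were 33.9% and 34.4% of all genes. Single nuclei weigh heavily in such sums: 1 nucleus gave 90.7% of the Npas4 counts in FFPE and another 57.7% of the Jun counts in frozen tissue. SMART-Seq2 reads carry no molecular identifiers, so counting intervals are too narrow here.

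Frozen nuclei with a count of 1 member often had counts of others. How often other genes of like detection occur together was not measured. In frozen tissue 29 of the 30 nuclei with Junb held another member (median 4 others), as did 63 of 69 with Egr1, 47 of 55 with Arc and 20 of 21 with Npas4. In FFPE tissue 15 of 34 nuclei with Egr1, 8 of 14 with Arc and 5 of 14 with Jun did so. The median number of others there was 0 with Egr1 and Jun and 1 with Arc, Nr4a1 and Btg2. It was 1.5 to 2.5 with Fos, Fosb, Junb and Npas4. Arc and Egr1 were found together in 43 frozen and 5 FFPE nuclei. At least 5 members occurred in 27 frozen and 3 FFPE nuclei, with at most 9 and 7 in 1 nucleus. At 10000 counts per nucleus, 2 or more members were found in 18.9% (12.5 to 26.8%) of frozen and 4.44% (1.65 to 9.42%) of FFPE nuclei. Over 20 further draws these shares ran from 13.4 to 18.9% and from 2.22 to 8.15%, and their intervals stood apart in 13 of the 20. At least 5 members were found in 0 or 1 nucleus of either tissue in each of these draws, and in 3 frozen nuclei in a draw made by plate, 2 on the first and 1 on the second.

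Depth rose with the number of members. Nuclei with no member had medians of 39322 counts in FFPE and 48186 in frozen tissue, and those with 3 or more had 181698 and 707176.

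**Figure D4:**
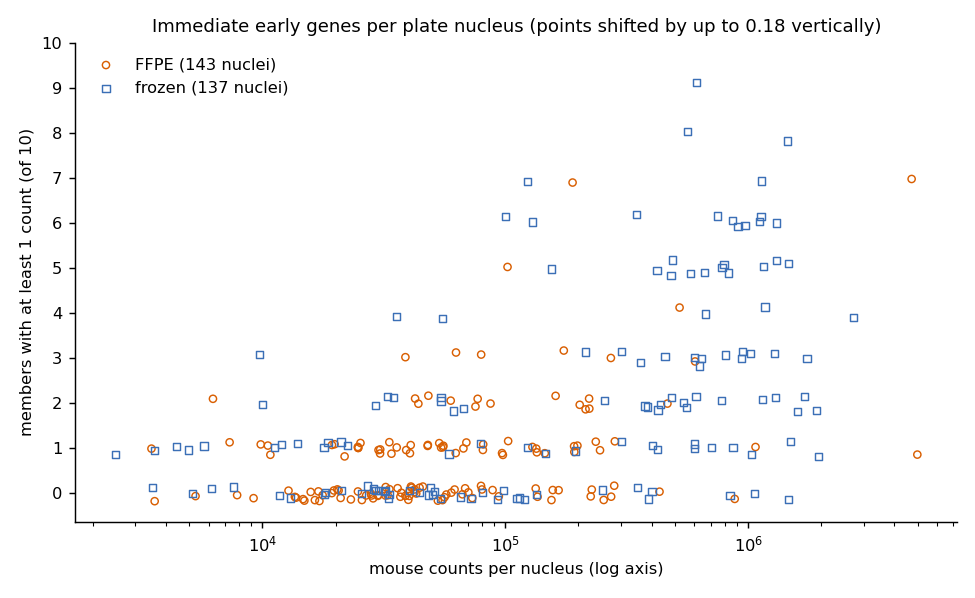
Number of members with at least 1 count in each plate nucleus (y axis, shifted slightly to separate points) against its mouse counts (log axis), with FFPE nuclei as circles and frozen nuclei as squares. Nuclei with 5 or more members are 27 frozen and 3 FFPE nuclei, and they lie to the right of most nuclei with 0 members.

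By transcripts of Slc17a7, a vesicular glutamate transporter of cortical glutamatergic neurons and of cerebellar granule neurons, and of Gad1 or Gad2, the enzymes of GABA synthesis, the 50 frozen nuclei with both kinds held a member in 100% (92.9 to 100%), and 32 of them held 3 or more. Doublets were not called here, and no source used here says whether they had been removed. These nuclei had a median of 522264 counts. Frozen nuclei with Slc17a7 alone held a member in 52.9% and those with Gad1 or Gad2 alone in 69.4%. Frozen nuclei with neither held a member in 35.3% (19.7 to 53.5%) and 3 or more in 2.94%. In FFPE tissue the shares with any member were 32.3% with Slc17a7 alone, 69.7% with Gad1 or Gad2 alone, 88.2% with both and 37.1% with neither. At equal depth those with neither held a member in 13.8% in frozen and 22.8% in FFPE tissue, or 6.90 to 17.2% and 19.3 to 31.6% over 20 draws. FFPE nuclei with Slc17a7 alone ran from 13.3 to 30.0% over those draws and overlapped the FFPE nuclei with neither. FFPE nuclei with Gad1 or Gad2 alone ran from 35.5 to 51.6%, above both. Frozen nuclei ran from 31.25 to 50.0% with Slc17a7 alone and from 28.1 to 46.9% with Gad1 or Gad2 alone. With both kinds, frozen nuclei ran from 50.0 to 72.0% and FFPE nuclei from 52.9 to 70.6%.

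The 2 plates of each kind were close in detection, and the FFPE plates differed in summed level. A member was found in 47.8% and 51.4% of nuclei on the FFPE plates and in 69.6% and 70.6% on the frozen plates. The summed level of the 10 members was 346 and 85.2 CPM on the FFPE plates and 316 and 275 CPM on the frozen plates, so the higher FFPE plate lay above both frozen plates by summed counts. As a mean over nuclei the levels were 180 and 157 CPM on the FFPE plates and 232 and 189 CPM on the frozen plates, and at equal depth 173 and 131 against 269 and 179 CPM, so that both FFPE plates lay below both frozen ones. The 134 FFPE nuclei that the whole-series table shares with the second labelled batch were identical in it, and 9 further FFPE nuclei had 102136 to 4973791 counts. Without these 9 the summed FFPE level was 250 CPM rather than 147 CPM, beside 295 CPM in frozen nuclei.

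The labels name 3 batches of FFPE plate nuclei, of which the first and second were compared here. A member was found in 21.4% (13.8 to 30.9%) of 98 nuclei in the first and 47.0% (38.3 to 55.8%) of 134 in the second. The first was nevertheless deeper, with medians of 180584 and 42747 counts. At 10000 counts the shares were 16.7% (9.64 to 26.0%) and 28.6% (20.9 to 37.3%), and over 20 further draws they ran from 14 to 18 of 90 and from 35 to 45 of 126 nuclei. Egr1 was in 7.14% and 20.1% of nuclei, and Nr4a1 in 3.06% and 11.9%. Junb had 0 counts in the first batch, where 3 counts of its total would be 0.173 CPM. Ier2 had 0 counts in both the first and the second batch.

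In the droplet nuclei the members did not separate the classes that the authors named ExNeuron from the others. Doublets were not called here, and no source used here says whether they had been removed. The names go against the marker levels in several classes. ExNeuron4 held inhibitory markers at 4907 CPM and excitatory markers at 956 CPM, ExNeuron6 held 2978 and 1194 CPM, and ExNeuron3 held granule markers at 2160 CPM against 967 CPM of excitatory ones. ExNeuron2 held inhibitory markers at 1727, granule markers at 1591 and excitatory markers at 1146 CPM. The class named oligodendrocyte precursors held inhibitory markers at 3435 and oligodendrocyte markers at 2965 CPM against 1868 CPM of its own. They gave 664 UMIs in 616 of 7031 nuclei (8.76%), or 255 CPM counted in UMIs (exact Poisson 95% interval 236 to 275). The 6 ExNeuron classes held a member in 8.76% of nuclei (8.03 to 9.54%) and the 6 other classes in 8.75% (7.35 to 10.3%), at median depths of 325 and 326 UMIs. Arc stood at 41.3 CPM in ExNeuron classes (33.1 to 51.1) and 34.3 in the others (20.3 to 54.2), and Npas4 at 15.4 and 15.2. Oligodendrocytes, which should lack both, had Arc in 1.01% of nuclei (0.208 to 2.91%) against 1.51% (1.20 to 1.86%) in ExNeuron classes. Whether such shares come from background RNA, mixed nuclei or expression was not tested. The 10 excitatory markers were spread in the same way, at 1290 CPM in ExNeuron classes and 1339 in the others.

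Within the classes the summed level ran from 118 CPM in the class named oligodendrocyte precursors (53.8 to 223) and 149 in ExNeuron4 (109 to 199) to 331 in oligodendrocytes and 341 in microglia. Microglia were 93 nuclei, of which 84 held no member, so their level rests on few UMIs. ExNeuron1, the largest class, stood at 302 (266 to 342), with an interval apart from that of ExNeuron4. Arc was at 59.2 (43.8 to 78.3) in ExNeuron1 and 19.8 (7.28 to 43.2) in ExNeuron4, and Npas4 at 16.9 and at 0 of 716 nuclei. At least 2 members in 1 nucleus were rare, in 0.520% of nuclei of ExNeuron classes and 0.551% of the others. Egr1 was the most counted member with 217 UMIs, followed by Arc with 104, Nr4a1 with 94, Junb with 87, Jun with 63 and Npas4 with 40. Fos and Fosb had 8 each.

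**Figure D5:**
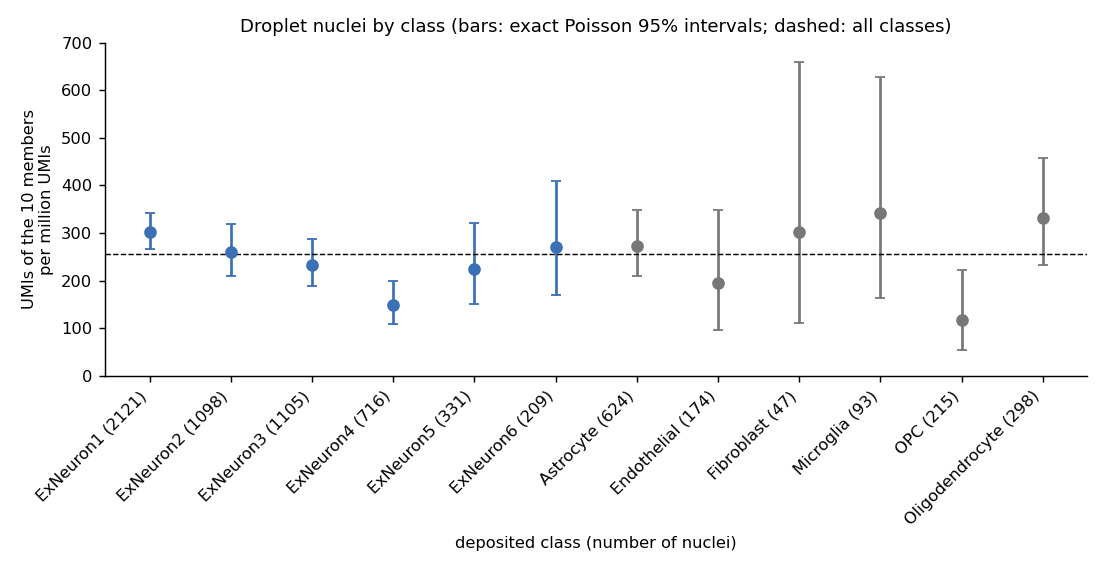
Summed CPM of the 10 members (UMIs scaled to a common total) in each annotated droplet class (number of nuclei in brackets), with exact Poisson 95% intervals that cover counting error only; blue marks the classes named ExNeuron, grey the others, and the dashed line all classes at 255. ExNeuron4 and oligodendrocyte precursors lie lowest, and the ExNeuron classes do not stand above the others.

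The authors' deposited table of genes gives the number of cells with each gene, and for 0 of 19905 genes was it below the number among the 7031 nuclei. The authors' deposited table lists 257 cells with Fos and 1109 with Junb, of which 8 (3.11%) and 86 (7.75%) are among the 7031. The authors' deposited table lists 495 cells with Egr1 and 292 with Nr4a1, of which 43.2% and 31.8% are among them. The median of 14099 genes with at least 40 cells in the authors' deposited table was 14.2%, with quartiles of 8.74 and 21.6%. Fos therefore lay low and Egr1 high among all genes, the former above 7.58% of them and the latter above 95.9%.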

How the data were processed

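The tables deposited by the authors are unnormalized: read counts for each gene in every well or nucleus (SCRB-seq and SMART-Seq2) and UMI counts (droplets). The number of cells with each gene in the authors' deposited gene table is a count too. Per the submitters' processing notes the builds were mm10 and hg19, and no source used here names the aligner or counter. Groups of wells and classes of droplet nuclei came from the authors' annotation. Only mouse genes entered the fits, and 0 whole-series columns of plate nuclei were unused. Human genes held 400070 counts over FFPE and 22589 over frozen SCRB-seq wells, and their part in the differences was not tested.

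Wells were compared with edgeR 4.0.16 under R 4.3.3, by the quasi-likelihood test after TMM scaling and the filterByExpr filter. P-values were adjusted over all mouse genes, with a threshold of 0.05. A check on simulated SCRB-seq wells used the filter of at least 10 counts summed. It drew wells independently, with no difference between pools, so it does not cover the error of calls over wells that share pools. Alternatives were DESeq2 1.42.0, its size factors, other filters, nuclei number as a covariate, leaving out wells and, added after the data were seen, leaving out pools, pools as samples and 20 repeated thinning draws of plate nuclei. Groups of nuclei are 1 sample each and were not tested. Thinning drew counts without replacement to 10000 per plate nucleus and 300 UMIs per droplet nucleus, leaving out shallower ones. Intervals are exact, at 95%, and a level of 0 was bounded with 3 counts over the group.

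The members and lists were chosen with earlier results of these data known. The genes named were the members, up to 5 called genes with the smallest p per list and comparison, the 2 most counted per list and table, and the 5 most like the members' sum. The values of 1 further gene called in a list are not reported here.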

Additional observations from a re-analysis of the deposited data

Results flagged for a closer look

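In SCRB-seq, the highest well of a pool stood far from the other 7 wells in 23 of 80 combinations of member and pool, 51 of which had any count (the gap to the next well over 0.526 of the range). Chance flags about 1 in 20 groups, and sparse counts with many wells at 0 meet such a rule more easily. The highest wells were, in CPM of Arc, 424 (frozen, 10 nuclei) and 120 (mineral oil, 100), of Btg2 10.3 and 41.2 (heated xylene, 10 and 100), of Egr1 404 (heated xylene, 10) and 405 (xylene at room temperature, 10), and of Fos 162 (frozen, 10), 74.9 (heated xylene, 100) and 764 (mineral oil, 10). They were 45.8 for Fosb (frozen, 100), 317 and 163 for Ier2 (xylene at room temperature, 10 and 100), and for Jun 16.2 and 50.1 (frozen, 10 and 100) and 154 and 169 (xylene at room temperature, 10 and 100). They were 101 for Junb (heated xylene, 100) and 145 (xylene at room temperature, 100), 132 for Npas4 (frozen, 10) and 90.8 (xylene at room temperature, 100), and for Nr4a1 324.5 (frozen, 10), 18.8 (heated xylene, 10) and 419 (xylene at room temperature, 10). The sum of the 10 members stood apart in 2 pools, at 454 CPM in a heated xylene well and 764 CPM in a mineral oil well, both of 10 nuclei.

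The term for the difference of FFPE minus frozen between wells of 10 and of 100 nuclei was called for Arc, at −3.64 on the log2 scale (SE 0.97, adjusted p = 0.0141 by edgeR over wells), where 6.97% of genes were called. All 24 FFPE wells of 10 nuclei were at 0 and each frozen arm was 1 pool, so the value is no size and the call supports no difference.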

How the results depend on the processing

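In SCRB-seq no member passed edgeR's filter, so the 0 called in the 4 comparisons says nothing of stability, also with each well left out in turn (0 to 0). With no filter 3, 2, 3 and 4 of the 10 members were called, beside 3415, 2899 and 2925 of 18205 genes and 4785 of 19006, for mineral oil minus heated xylene, heated xylene minus room-temperature xylene, mineral oil minus room-temperature xylene and FFPE minus frozen. With at least 10 counts summed the counts were 3, 2, 2 and 4, in wells of 100 nuclei alone 4, 1, 2 and 3 (beside 3011, 1807 and 1717 of 12602 genes and 3400 of 13652), and in wells of 10 nuclei alone 2, 2, 4 and 4 of 5, 5, 5 and 7 tested (beside 3109, 3002 and 3277 of 8798 genes and 3646 of 10375). Leaving out a pool gave 2 to 5, 2 to 5, 2 to 4 and 3 to 6. The members tested were 7 to 9 between methods and 8 to 10 in FFPE minus frozen. In the same order the genes called ran from 2774 of 13432 to 4758 of 12778 and from 1701 of 13142 to 3691 of 12621. They then ran from 2180 of 13142 to 4427 of 12778 and from 2459 of 13851 to 5366 of 14009. FFPE wells as 1 group gave 3, beside 4052 of 14524 genes. The SMART-Seq2 difference of Btg2, not called, ran from −2.14 to 0.55 as single wells were left out, the latter without the frozen well of 50 nuclei. DESeq2 and its size factors called 0 of the 5 members tested in SMART-Seq2, as edgeR did. Beside this they called 640 and 357 of 9092 genes in FFPE minus frozen. Between methods DESeq2 called 15, 1 and 18 of 8372 genes, and edgeR with its size factors called 0 in each comparison. In SCRB-seq they were run only with the filter that no member passed.

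A member was found in 34.1% of FFPE and 44.1% of frozen plate nuclei after thinning, and at 5 or more counts in 28.7% and 44.5%. The summed level was 168 CPM as a mean over FFPE nuclei and 250 CPM without the 9 further nuclei, and for frozen nuclei 211 CPM as a mean and 213 CPM thinned. In the first batch it was 143 CPM as a mean and 141 CPM thinned, and in the second 168 and 140 CPM, with 28.6% of nuclei thinned and 26.1% at 5 or more counts. Thinned droplets gave 104 CPM in ExNeuron4 and 234 in all classes. Why values moved was not tested beyond depth. Wells were not paired, because the groups share no replicate numbers in the labels. The groups do share nuclei numbers, which were a term in the fits with that covariate and in those with pools as samples. At these depths a count of 0 in a well or nucleus does not show absence.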
